A study of Mus musculus with 9 samples.

Results

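The genes that cytotoxic lymphocytes use to kill other cells did not move as a block in the grafted lungs. The genes followed here are the granzymes *Gzma*, *Gzmb*, *Gzmc*, *Gzmk* and *Gzmm*, perforin (*Prf1*), the granule protein *Nkg7*, the death ligand *Fasl*, its receptor *Fas* and the granzyme inhibitor *Serpinb9*. Every array probe that was not a control and whose accession belongs to 1 of these genes in RefSeq was taken, which gave 12 probes for all 10 genes, out of 56601 tested probes and 22909 named genes. Against sham lungs, *Gzmk*, *Gzmc*, *Nkg7* and *Fasl* were higher in lungs with obliterative bronchiolitis (OB), *Gzma* was lower, and the other 5 were not called.

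Left lungs of male C57BL/10 mice had been transplanted into male C57BL/6 mice, a pair of strains that differ in minor histocompatibility antigens, and were taken at day 21, each divided between histology and RNA. The grafts were sorted by histology into an OB group, with fibrotic polyps in the airways, and a non-OB group, so that these 2 groups carry the same operation and the same mismatch. The sham group had a left thoracotomy only. The mice were 8 to 12 weeks old, each group held 3 lungs, and each lung was measured on 1 Agilent array of 1 colour. The labels give 1 donor and 1 recipient strain for all 3 sham lungs alike. In the study's clustering figure, however, sham 1 is marked C57BL/10 and the other two C57BL/6, so that the strain of any single sham lung rests on that figure.

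Cytotoxic T cells and natural killer (NK) cells carry granules that hold perforin, which opens pores in a target cell, and granzymes, serine proteases that enter through them and cleave proteins of the target. A second route needs no granule: Fas ligand on the killer binds Fas on the target and starts a caspase cascade. Cells protect themselves from stray granzyme with serpins, which trap the protease, and different killer cells carry different sets of granzymes. In lung transplantation, both routes are known as ways in which lymphocytes of the recipient can injure graft airways.

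All signals below are processed spot intensities, scaled so that the trimmed mean of each array is 2500 and given as log2. A difference is therefore a log2 change, and 1 unit is a doubling. A gene was called against sham at an adjusted p under 0.05 and a change of at least 2-fold, and between OB and non-OB at an adjusted p under 0.05 alone. Levels of different genes come from different probes and are not compared. Both comparisons with sham use the same 3 sham lungs.

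Between 58.6% and 69.6% of the probes on an array were well above background. The 8 T cell markers (*Cd3d*, *Cd3e*, *Cd3g*, *Cd5*, *Cd8a*, *Cd8b1*, *Cd4* and *Lck*) and the 7 markers of alveolar and airway epithelium were all well above background on at least 1 array. The sham lungs also stood apart in 5 genes of cardiac muscle, whose summed signal ran from 45490 to 124100 in sham and from 1609 to 6557 in the grafts. In sham 8 endothelial genes summed to between 101300 and 123900, against 46890 to 58280 in non-OB and 31130 to 33730 in OB. The part of these tissues in the results below was not tested. In whole lungs, fewer cells of a type and less RNA per cell cannot be told apart.

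*Gzma* and *Gzmk* lie next to each other on chromosome 13, and *Gzmc* and *Gzmb* next to each other on chromosome 14, with no other protein-coding gene between them in RefSeq. In each pair 1 gene was higher in OB and its neighbour was not, so the promoter windows of these 4 genes are shown, from 250 bases before to 50 bases after the start of transcription (RefSeq, GRCm38.p6). Each runs 5′ to 3′ on the strand of its gene. Capitals mark matches, on either strand, to 5 short motifs: GTGTGA for T-box factors, TGTGGT for RUNX factors, TTCNNNGAA for STAT factors, TGANTCA for AP-1 and TGACGTCA, the cyclic AMP response element.
Gzma, chr13:113100932-113101231, minus strand: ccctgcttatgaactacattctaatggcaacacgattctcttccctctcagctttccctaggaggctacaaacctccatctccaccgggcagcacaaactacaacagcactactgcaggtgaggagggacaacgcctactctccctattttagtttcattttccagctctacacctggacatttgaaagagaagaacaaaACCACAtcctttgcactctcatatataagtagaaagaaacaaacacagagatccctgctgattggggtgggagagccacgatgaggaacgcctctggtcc
Gzmk, chr13:113180916-113181215, minus strand: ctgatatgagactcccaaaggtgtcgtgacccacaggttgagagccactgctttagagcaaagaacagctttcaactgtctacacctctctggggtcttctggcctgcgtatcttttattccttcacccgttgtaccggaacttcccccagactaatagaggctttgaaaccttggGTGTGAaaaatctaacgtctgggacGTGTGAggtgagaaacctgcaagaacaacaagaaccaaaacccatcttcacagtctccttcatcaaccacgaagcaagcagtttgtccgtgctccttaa
Gzmc, chr14:56234608-56234907, minus strand: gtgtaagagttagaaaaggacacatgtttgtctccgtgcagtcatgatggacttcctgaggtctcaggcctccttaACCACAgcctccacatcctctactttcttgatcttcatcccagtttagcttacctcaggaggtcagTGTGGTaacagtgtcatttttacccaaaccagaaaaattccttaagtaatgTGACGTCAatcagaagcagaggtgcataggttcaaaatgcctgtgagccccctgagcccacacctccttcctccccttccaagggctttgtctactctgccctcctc
Gzmb, chr14:56262285-56262584, minus strand: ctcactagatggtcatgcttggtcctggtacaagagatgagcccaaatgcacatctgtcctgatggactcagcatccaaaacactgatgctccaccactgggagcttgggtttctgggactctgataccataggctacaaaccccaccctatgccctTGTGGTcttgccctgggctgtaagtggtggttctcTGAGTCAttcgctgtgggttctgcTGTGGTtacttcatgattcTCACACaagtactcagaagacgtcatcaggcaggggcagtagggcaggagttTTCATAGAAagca

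The *Gzma* window held 1 match, to the RUNX motif, and no T-box match. The *Gzmk* window held 2 matches to the T-box motif, which begin at positions -74 and -49 from the start, and no RUNX match. The *Gzmc* window held 2 RUNX matches and the only cyclic AMP response element among the 10 genes. The *Gzmb* window held 5 matches, 2 of them to RUNX and 1 each to the T-box, STAT and AP-1 motifs. Of all 32851 windows of this length, 14.5% held the T-box motif, 16.8% the RUNX motif, 8.3% the STAT motif, 7.81% the AP-1 motif and 1.79% the cyclic AMP response element. The RUNX motif was found in windows of 7 of the 10 genes and the T-box motif in windows of 4, namely *Gzmb*, *Gzmk*, *Gzmm* and *Nkg7*. The STAT motif was found in windows of 4 genes and the AP-1 motif in windows of 2. The 10 genes have 11 windows, because *Gzmm* has 2, with the RUNX match in 1 and the T-box matches in the other. These counts are therefore by gene, whereas the shares above are by window. In the 4 windows shown no matches overlapped. These are matches of letters and do not show that a factor binds there.

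In OB against sham, 4 of the 10 genes were called with a rise and 1 with a fall, against a background of 3.82% called higher and 3.73% called lower among all named genes. The 10 genes were chosen with earlier results of these data known, so this contrast is no separate evidence. The median log2 change over the 10 genes was 0.10, and over all named genes it was -0.05. In 4 of the 10 genes every OB lung lay above every sham lung, where 19.9% of all genes did so, and in 3 every OB lung lay below, where 23.4% did so. In non-OB against sham, 1 gene was called higher and 1 lower, with backgrounds of 2.52% and 1.13%. Every non-OB lung lay above every sham lung in 5 genes (15.5% of all genes) and below in 1 gene (19% of all genes), and the median over the 10 was 0.19. These medians are the same with *Gzmc* at the folds above the floor given below. Between OB and non-OB none of the 10 was called by limma, 1 had an unadjusted p under 0.05, and none of the 22909 named genes was called (0%).

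**Figure D1:**
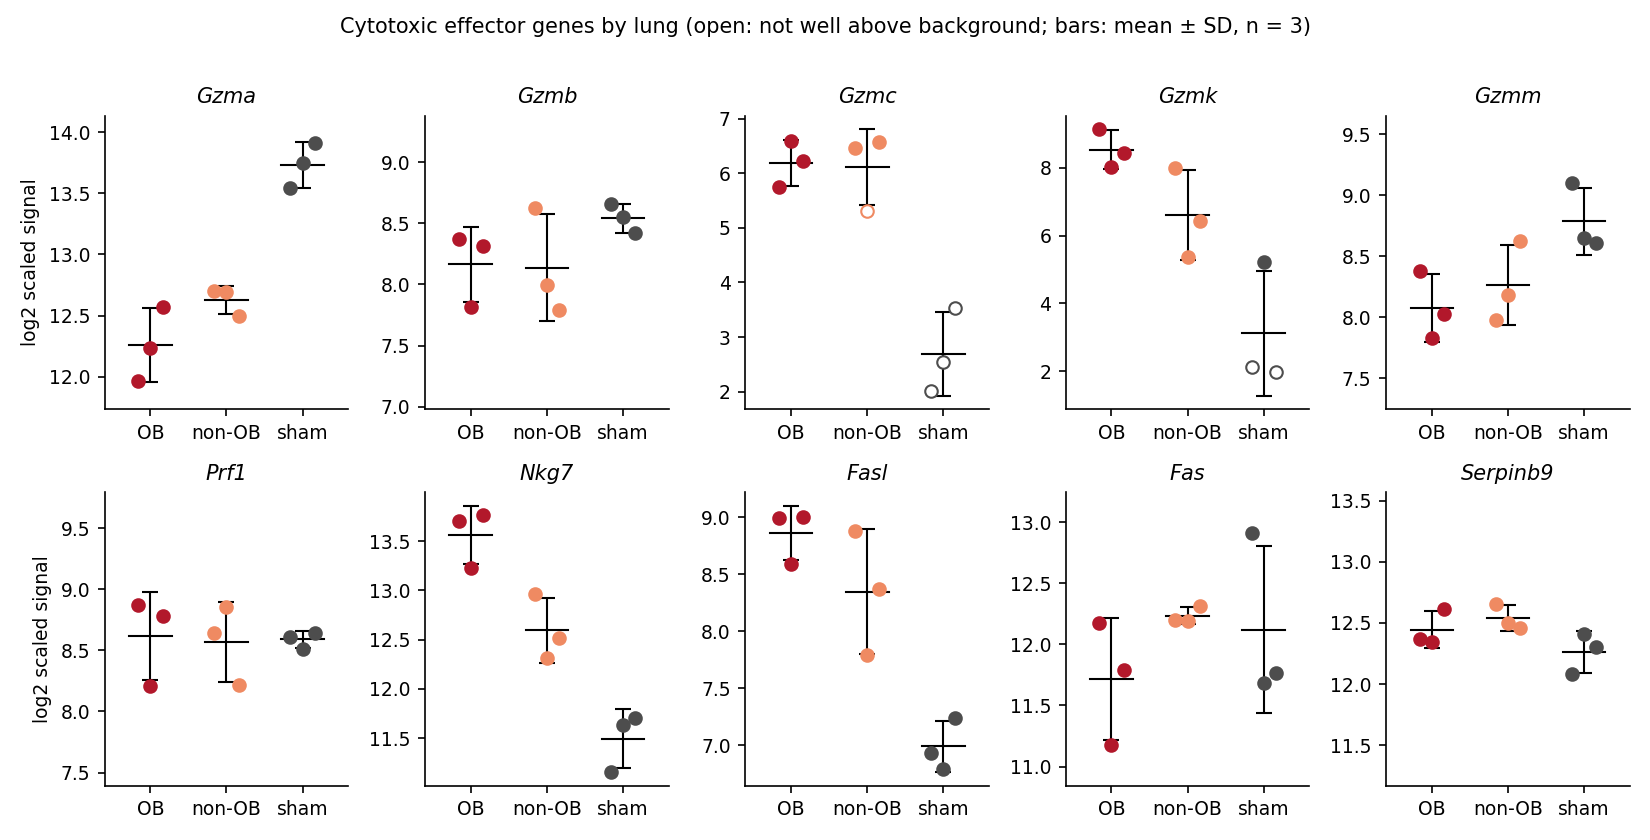
Log2 scaled signal of the 10 genes in each lung, 1 panel for each gene and 1 point for each of 3 OB, 3 non-OB and 3 sham lungs, with the mean and SD of each group; open points were not well above background, and each panel has its own axis. *Gzma* is lower in all 6 grafts than in the sham lungs, whereas *Gzmk*, *Gzmc*, *Nkg7* and *Fasl* are higher in all 6.

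*Gzma* encodes granzyme A, a tryptase that is among the most abundant granzymes of resting NK cells. Its log2 signal was 11.97, 12.23 and 12.57 in the OB lungs 1 to 3, 12.70, 12.69 and 12.50 in the non-OB lungs, and 13.54, 13.75 and 13.91 in the sham lungs. All 6 grafts lay below all 3 sham lungs, and the graft groups overlapped each other. *Gzma* fell by 1.47 (SE 0.21, adjusted p = 0.0078 from limma) in OB, a 2.78-fold lower mean, and by 1.10 (SE 0.21, adjusted p = 0.0359) in non-OB. The difference of -0.37 between OB and non-OB had a 95% confidence interval from -0.85 to 0.11. The OB call was kept with each of the 9 arrays left out in turn. The non-OB call was lost without OB 2, or without any 1 of the 3 non-OB or 3 sham lungs, at adjusted p between 0.0579 and 0.149. It was also lost with quantile normalization, where the change stood just under the fold threshold at an adjusted p of 0.0379.

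Markers of NK cells moved with *Gzma* in part. The summed signal of the 8 NK markers ran from 1872 to 2243 in OB, from 2067 to 2685 in non-OB and from 2516 to 3477 in sham. OB thus lay below sham, and non-OB overlapped both. Among them *Ncr1*, *Klrb1c*, *Klra4*, *Klra8* and *Itga2* had log2 changes between -0.92 and -0.41 in OB against sham, none of them called. *Klre1* (0.19) and *Klrb1f* (1.37, adjusted p = 0.0588 from limma, every OB lung above every sham lung) had positive changes and were not called either. *Klri2*, a lectin-like receptor, was not well above background in sham and was called higher in OB, with an adjusted p of 0.00479 from limma. Its OB mean was 3.29-fold above sham with the sham signals raised to the floor explained below for *Gzmc*, which is no lower bound. At an unadjusted p under 0.05, 2 of the 8 NK markers were higher in OB and 2 lower, and the share of all genes at this level was not counted. Every OB lung lay above every sham lung in 2 of the 8 (19.9% of all genes) and below in 4 (23.4% of all genes). Of 10 mast cell and basophil markers 9 had negative changes in OB, but *Gata2* alone was called lower (-1.98, adjusted p = 0.0282 from limma, named here after its value was seen). Among all genes 3.73% were called lower. The proteases *Mcpt4*, *Mcpt8*, *Cma1*, *Cpa3* and *Tpsb2* had changes of -1.29, -0.90, -0.77, -0.27 and 0.22, none of them called. The summed signal of the 10 ran from 7864 to 11170 in OB, from 10870 to 14330 in non-OB and from 20330 to 22680 in sham. It was carried by *Hdc* (-1.03), *Kit* (-1.04) and *Gata2*, the first 2 of these not called. Whether the signals of *Hdc*, *Kit* and *Gata2* came from mast cells and basophils was not tested. The part of these cells in the lower *Gzma* signal was not tested. Over the 9 lungs the genes whose signal was most like that of *Gzma*, out of 14745 measured on every array, were *S1pr5*, the sphingosine-1-phosphate receptor known for the exit of NK cells from lymphoid tissue (Pearson r = 0.991), *Fam174b* (0.983) and *Dpp4* (0.98). The 9 points fall into 3 groups, so that r mostly describes the group pattern.

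*Gzmk* encodes granzyme K, a tryptase like granzyme A that is known from memory CD8+ T cells. Log2 signals of *Gzmk* were 9.15, 8.03 and 8.45 in OB, 8.01, 5.37 and 6.44 in non-OB, and 2.12, 5.23 and 1.98 in sham. In sham it was well above background in sham 2 alone. On this probe all 3 groups were separate, with OB highest. However, OB 2 (8.03) and non-OB 1 (8.01) nearly met, and so did non-OB 2 (5.37) and sham 2 (5.23). *Gzmk* rose by 5.43 in OB against sham (SE 0.96, adjusted p = 0.0173 from limma). The SE and the size of this change rest on 2 sham lungs at the floor of the array, and the call was lost without OB 3 (adjusted p = 0.0582), without sham 1 (0.0678) or without sham 3 (0.062). With normexp and quantile normalization together the change was 1.99 in OB, still called, and 0.73 in non-OB.

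In non-OB the *Gzmk* change of 3.50 (SE 0.96, adjusted p = 0.114) was not called, although non-OB and sham, by a narrow margin, did not overlap. Between OB and non-OB the difference was 1.93 (SE 0.96, unadjusted p = 0.078, adjusted p = 1). Its 95% confidence interval, from -0.27 to 4.14, takes in both no difference and a large one. A further probe carries an Ensembl transcript that only the study's own table of genes higher in OB names as *Gzmk*, so that it was chosen on these arrays and its rise is no separate evidence. Its log2 changes were 5.07 in OB and 3.60 in non-OB against sham. Between OB and non-OB the difference on it was 1.47 (unadjusted p = 0.163 from limma), and the graft groups overlapped.

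*Gzmc* encodes granzyme C, a product of the granzyme cluster on chromosome 14 that is known from strongly activated cytotoxic cells. Its log2 signal was 5.75, 6.58 and 6.23 in OB, 6.46, 5.30 and 6.56 in non-OB, and 2.01, 2.55 and 3.52 in sham. None of the 3 sham lungs and 2 of the 3 non-OB lungs were well above background, against all 3 OB lungs, so the size of the change was not measured. *Gzmc* was called higher in both graft groups, with an adjusted p of 0.00694 in OB and 0.0127 in non-OB from limma. A floor was taken as the lowest signal of any probe that counts as well above background on each sham array. The OB mean of *Gzmc* was 4.41-fold above this floor and the non-OB mean 4.17-fold. These folds are no lower bounds, because non-OB 2, at 5.30, was itself not well above background. With normexp background correction and quantile normalization together, the changes were 0.67 and 0.61 and stayed under the fold threshold.

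The OB call of *Gzmc* was kept with each array left out in turn. The non-OB call was lost without non-OB 1 (adjusted p = 0.0568) or without sham 2 (0.0664). OB and non-OB differed by 0.08 (SE 0.48), with a 95% confidence interval from -1.02 to 1.17. *Gzmc* has close paralogs beside it, and the probes of all 5 other granzymes in the list, *Gzmd*, *Gzme*, *Gzmf*, *Gzmg* and *Gzmn*, were below background on every array. Whether the *Gzmc* probe also binds their transcripts was not tested.

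*Gzmb* encodes granzyme B, which cleaves after aspartate and can activate caspases directly. The log2 signal of *Gzmb* was 8.37, 7.81 and 8.32 in OB, 8.63, 8.00 and 7.79 in non-OB, and 8.66, 8.55 and 8.42 in sham. Every OB lung lay below every sham lung, by a small margin, and non-OB overlapped both. The changes of -0.38 in OB (SE 0.26, adjusted p = 0.432 from limma) and -0.41 in non-OB (SE 0.26, adjusted p = 0.413) were not called. The 95% confidence interval ran from -0.98 to 0.23 in OB and from -1.01 to 0.20 in non-OB, so that a doubling lay outside both, and a halving lay just outside the first and just inside the second.

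*Gzmm* encodes granzyme M, a granzyme known from NK cells and other innate lymphocytes. Its log2 signal was 8.38, 7.83 and 8.03 in OB, 7.98, 8.18 and 8.62 in non-OB, and 9.10, 8.65 and 8.61 in sham. As with *Gzma* and *Gzmb*, every OB lung lay below every sham lung, as was so in 23.4% of all genes. The change of -0.71 in OB (SE 0.25, unadjusted p = 0.0225, adjusted p = 0.166 from limma) was not called, and neither was that of -0.52 in non-OB (adjusted p = 0.338). A second, dimmer probe gave -0.50 and -0.54, and on it OB and sham overlapped.

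*Prf1* encodes perforin, without which granzymes do not reach their substrates. The *Prf1* signal was, as log2, 8.87, 8.21 and 8.78 in OB, 8.64, 8.85 and 8.21 in non-OB, and 8.61, 8.51 and 8.64 in sham. The grafts spread on both sides of the narrow sham range. The change was 0.03 in OB against sham (95% confidence interval from -0.53 to 0.59) and -0.02 in non-OB (from -0.58 to 0.54), so that a doubling or halving lay outside both intervals. The sign of either change turned when single arrays were left out.

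*Nkg7* encodes a membrane protein of cytotoxic granules that is needed for their release. In log2 units the *Nkg7* signal was 13.70, 13.23 and 13.77 in OB, 12.96, 12.32 and 12.52 in non-OB, and 11.15, 11.63 and 11.70 in sham. The 3 groups did not overlap, with OB highest and sham lowest. *Nkg7* rose by 2.07 in OB against sham (SE 0.26, adjusted p = 0.0053 from limma), a 4.20-fold higher mean, and this call was kept with each array left out. In non-OB the change of 1.10 had an adjusted p of 0.0733 and was not called, although 4 alternative settings called it.

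*Nkg7* also had the smallest unadjusted p of the 10 genes between OB and non-OB. The difference was 0.97 (SE 0.26, 95% confidence interval from 0.37 to 1.56, unadjusted p = 0.00559), and after adjustment over all probes the p was 1. It was the only 1 of the 10 genes higher in OB at an unadjusted p under 0.05, a level that 0.694% of all genes reached in this direction and 1.55% in the other. All 3 OB lungs lay above all 3 non-OB lungs in *Nkg7* and *Gzmk* (1.43% of all genes), and below them in *Fas* (3.59% of all genes). On the further *Gzmk* probe and the second *Fas* probe, OB and non-OB overlapped. On the 3 slides that held both an OB and a non-OB lung, the *Nkg7* difference was 0.74, 0.71 and 1.45, and the *Gzmk* difference 1.14, 1.58 and 3.08.

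The summed T cell and macrophage markers moved in the direction of *Nkg7*. The summed signal of the 8 T cell markers ran from 43250 to 55140 in OB, from 26430 to 40110 in non-OB and from 8098 to 13560 in sham, and none of the groups overlapped. All 8 were called higher in OB than in sham and 4 in non-OB, against 3.82% and 2.52% of all genes. Between OB and non-OB none was called, and 2 were higher at an unadjusted p under 0.05 (0.694% of all genes). In 4 of the 8 every OB lung lay above every non-OB lung (1.43% of all genes). *Cd8a* and *Cd8b1*, the chains of the co-receptor of cytotoxic T cells, had differences of 1.30 and 1.16 between OB and non-OB. The 6 macrophage markers summed to between 57790 and 62530 in OB, 38970 and 53970 in non-OB and 24180 and 31260 in sham, again with no overlap. Of the 6, 5 had positive changes in OB against sham. *Cd68* (2.29) and *Adgre1* (2.01) were the 2 called higher in OB than in sham, where 3.82% of all genes were. The part of T cells and macrophages in the *Nkg7*, *Gzmk* and *Fasl* results was not tested. Most like *Nkg7* over the 9 lungs were *AI413582* (Pearson r = 0.98) and the chemokines *Ccl5* (0.98) and *Ccl4* (0.978), which activated cytotoxic lymphocytes secrete.

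**Figure D2:**
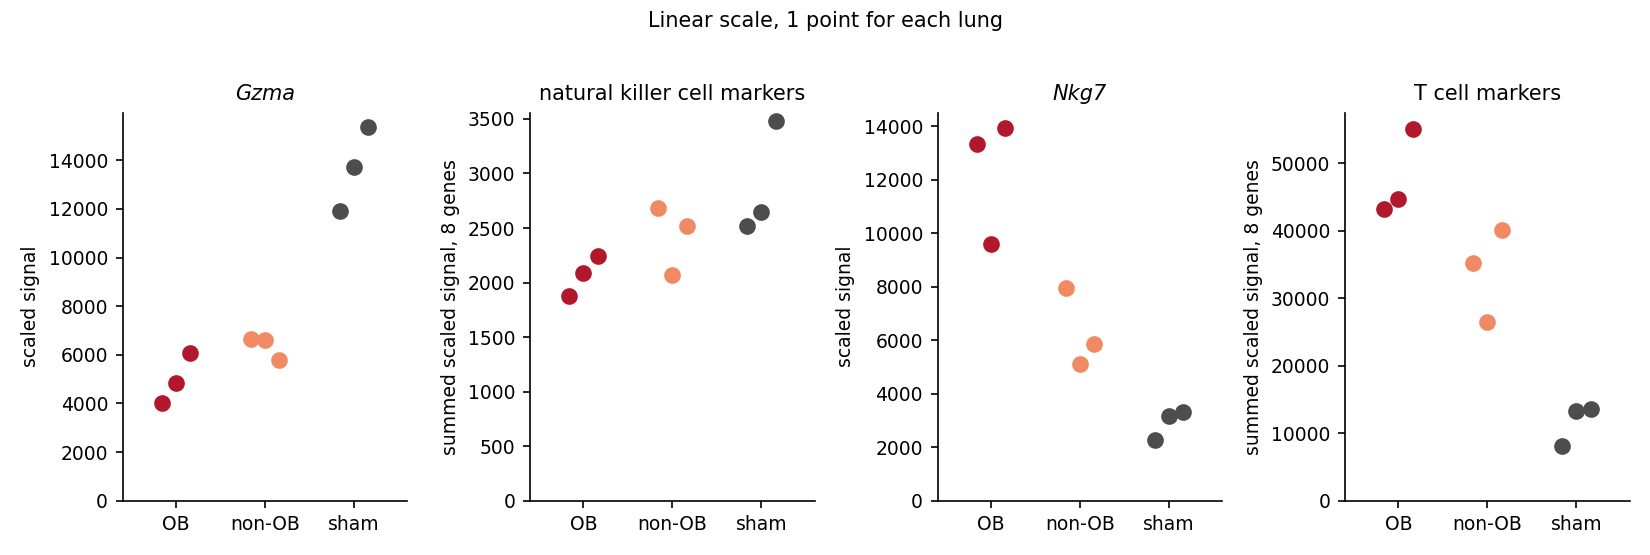
Scaled signal on a linear scale of *Gzma* and *Nkg7* and summed scaled signal of 8 NK cell markers and 8 T cell markers, with 1 point for each of 3 OB, 3 non-OB and 3 sham lungs; each panel has its own axis, starting at 0. *Gzma* is highest in sham, and the NK marker sum is lower in OB than in sham with non-OB overlapping both. *Nkg7* and the T cell marker sum are highest in OB, intermediate in non-OB and lowest in sham.

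*Fasl* encodes Fas ligand. Its log2 signal was 9.0, 8.59 and 9.01 in OB, 8.88, 7.79 and 8.37 in non-OB, and 6.94, 6.80 and 7.24 in sham. Every graft lay above every sham lung, and the graft groups overlapped. *Fasl* rose by 1.87 in OB (SE 0.30, adjusted p = 0.0114 from limma), a 3.66-fold higher mean, and the call was lost without sham 2 (1.78, adjusted p = 0.0581). The change of 1.36 in non-OB had an adjusted p of 0.0576 and was not called, whereas without non-OB 2, the lowest graft, it was (1.64, adjusted p = 0.0321). OB and non-OB differed by 0.52 (95% confidence interval from -0.17 to 1.20). The genes most like it were *Sla2*, an adaptor that dampens T cell receptor signals, *Supt4b* and *1600014C10Rik*, with Pearson r between 0.983 and 0.986. As for *Gzma*, r for *Fasl* and *Nkg7* mostly describes the group pattern. The top match was *Yy1* for *Gzmb* (Pearson r = 0.945), *Dnajb2* for *Gzmm* (0.979) and *Ghitm* for *Prf1* (0.958). It was *Baiap2* for *Fas* (0.962) and *Zfand3* for *Serpinb9* (0.911).

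*Fas* encodes the receptor for this ligand and is made by many cells of the lung, including epithelium. Log2 signals of *Fas* were 12.17, 11.18 and 11.79 in OB, 12.20, 12.19 and 12.31 in non-OB, and 12.91, 11.69 and 11.77 in sham. The sham lungs spanned more than the grafts did, with sham 1, the C57BL/10 lung, highest of all 9. The changes against sham were -0.40 in OB (SE 0.37, adjusted p = 0.557 from limma) and 0.11 in non-OB (SE 0.37, adjusted p = 0.885). All OB lungs lay below all non-OB lungs, with a difference of -0.52 (unadjusted p = 0.203), and on the second *Fas* probe, where the difference was -0.37, the groups overlapped.

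*Serpinb9* encodes the serpin that traps granzyme B inside the cells that carry or meet it. Log2 signals of *Serpinb9* were 12.37, 12.34 and 12.62 in OB, 12.66, 12.50 and 12.46 in non-OB, and 12.08, 12.41 and 12.30 in sham. The 9 lungs lay close together, with every non-OB lung above every sham lung. The changes of 0.18 in OB (SE 0.18, adjusted p = 0.58 from limma) and 0.27 in non-OB (SE 0.18, adjusted p = 0.405) were not called. Their 95% confidence intervals, from -0.22 to 0.58 and from -0.13 to 0.68, stayed under a doubling.

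**Figure D3:**
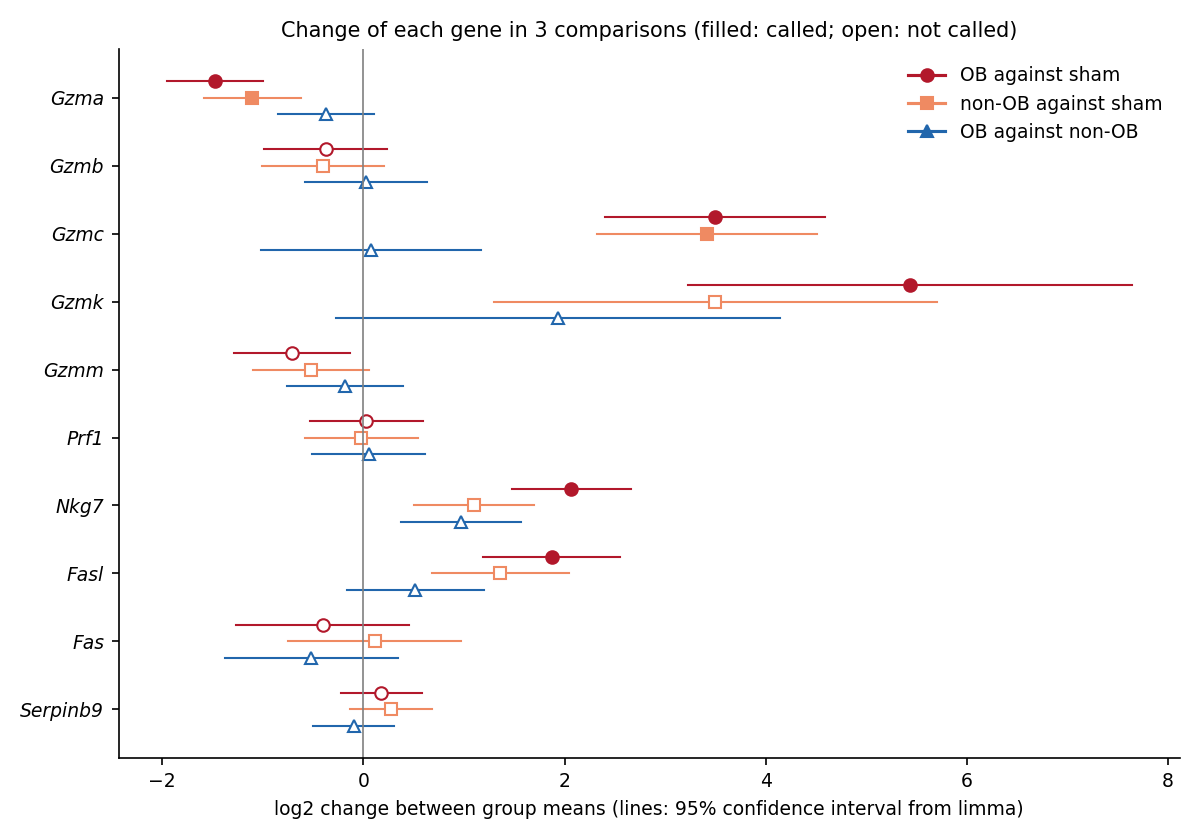
Log2 change of each of the 10 genes in OB against sham, non-OB against sham and OB against non-OB, with the 95% confidence interval from limma; filled symbols were called. *Gzma* is the only gene with a called fall, no gene has a filled symbol for OB against non-OB, and the *Gzmk* intervals are the widest; the *Gzmc* changes against sham are fitted to sham signals below background and are no measured folds.

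The arrays were spread over 4 slides. Both sham 1 and sham 2 shared slide 1 with OB 1 and non-OB 1, and within it OB minus the mean of both sham lungs was -1.68 for *Gzma*, 5.47 for *Gzmk*, 3.48 for *Gzmc*, 2.31 for *Nkg7* and 2.13 for *Fasl*. Within the same slide non-OB minus sham was -0.94 for *Gzma*, 4.33 for *Gzmk*, 4.18 for *Gzmc*, 1.57 for *Nkg7* and 2.02 for *Fasl*. With the slide as a fixed block, which leaves few arrays to estimate the spread, the changes in OB were -1.50 for *Gzma*, 5.87 for *Gzmk*, 3.87 for *Gzmc*, 2.42 for *Nkg7* and 2.33 for *Fasl*, and none was called, at adjusted p between 0.0647 and 0.1 from limma. Against sham 1 alone, the C57BL/10 lung by the study's figure, which is assumed to vary like the other groups, none was called either, at adjusted p between 0.058 and 0.206 and with the same signs.

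Around these genes, 74 of 76 listed genes of the granule, the serpins, the death receptors, granzyme substrates and their regulators were measured. In OB against sham 12 of them (16.2%) were called higher and 0 lower, and in non-OB 7 (9.46%) higher and 0 lower. These shares stand beside 3.82% and 2.52% of all genes called higher. The lists too were chosen with earlier results of these data known, so this contrast is no separate evidence. Between OB and non-OB none of the 74 was called by limma, and at an unadjusted p under 0.05 there was 1 higher and 1 lower (0.694% and 1.55% of all genes). Without sham 2 the OB count was 4, and without OB 2, OB 3 or sham 1 it was 7, 7 and 6. The non-OB count was 2 without non-OB 1, non-OB 3, sham 1 or sham 2, and 4 without OB 3 or sham 3. The number of all named genes called higher in OB fell as well, from 875 to 438 without sham 2, 559 without OB 2, 561 without OB 3 and 527 without sham 1. In non-OB it fell from 578 to 254 without non-OB 1, 328 without non-OB 3, 251 without sham 1, 171 without sham 2, 416 without OB 3 and 315 without sham 3.

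Of 16 genes that mature and release granules, 1 was called higher in OB and 0 in non-OB, where 3.82% and 2.52% of all genes were. The called gene was *Ctsw*, cathepsin W, a protease known from NK cells and cytotoxic T cells, which rose by 2.10 in OB (SE 0.38, adjusted p = 0.0201 from limma). *Ctsc*, the cathepsin that activates granzymes by trimming them, changed by 0.90 in OB (adjusted p = 0.0141) and 0.73 in non-OB (adjusted p = 0.0485), both under the fold threshold. *Srgn*, the proteoglycan that packs granzymes in granules, changed by 0.27 in OB (adjusted p = 0.373).

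None of the 10 other serpins was called in any comparison by limma, and 4 of them were below background on every array. At an unadjusted p under 0.05, 1 was higher in OB and 1 in non-OB against sham, where the share of all genes was not counted. Between OB and non-OB 1 was lower at this level (1.55% of all genes). *Serpinb1a*, an inhibitor of neutrophil proteases, had changes of 1.02 in OB (adjusted p = 0.221) and 1.09 in non-OB (adjusted p = 0.241). Of the 16 death receptor genes, 1 was called higher in either graft group, *Tnfrsf1b*, the second receptor for tumour necrosis factor, at 1.55 in OB (adjusted p = 0.00652) and 1.29 in non-OB (adjusted p = 0.0209). Among all genes 3.82% and 2.52% were called higher in OB and non-OB. *Fadd* and *Casp8*, the adaptor and the caspase that Fas engages, changed by -0.08 and 0.55 in OB and were not called.

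Of 10 genes for proteins that granzymes cleave or act with, *Trex1* alone was called higher in OB (1.31, adjusted p = 0.0108) and in non-OB (1.15, adjusted p = 0.0291). The shares of all genes called higher were 3.82% in OB and 2.52% in non-OB. *Trex1* is the exonuclease of the SET complex, a target of granzyme A that also holds *Set* (0.37 in OB) and *Hmgb2* (0.94 in OB), neither of which was called. The list with the most called genes was that of effector transcription factors and cytokine receptors, in which 9 of 17 were called higher in OB and 5 of 17 in non-OB, with median changes of 1.44 and 1.19.

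Its largest changes in OB were those of *Il12rb1*, a receptor chain for interleukin 12 (2.84, adjusted p = 0.00197), *Runx3*, a RUNX factor of CD8+ T cells (2.25, adjusted p = 0.014), *Il2ra*, the inducible chain of the interleukin 2 receptor (2.25, adjusted p = 0.0037), and *Il21r* (2.01, adjusted p = 0.0207). Of the T-box factors, named here after their values were seen because the T-box motif was searched, *Tbx21* was called (1.44, adjusted p = 0.0177) and *Eomes* was not (1.72, adjusted p = 0.0687). Also named after their values were seen, *Batf* (1.58, adjusted p = 0.0118 from limma) and *Stat4* (1.47, adjusted p = 0.0121) were called. The transcription factors *Prdm1*, *Zeb2*, *Id2* and *Irf4* of this list were not. *Il12rb2*, the partner chain of *Il12rb1*, changed by 0.14 (adjusted p = 0.844).

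**Figure D4:**
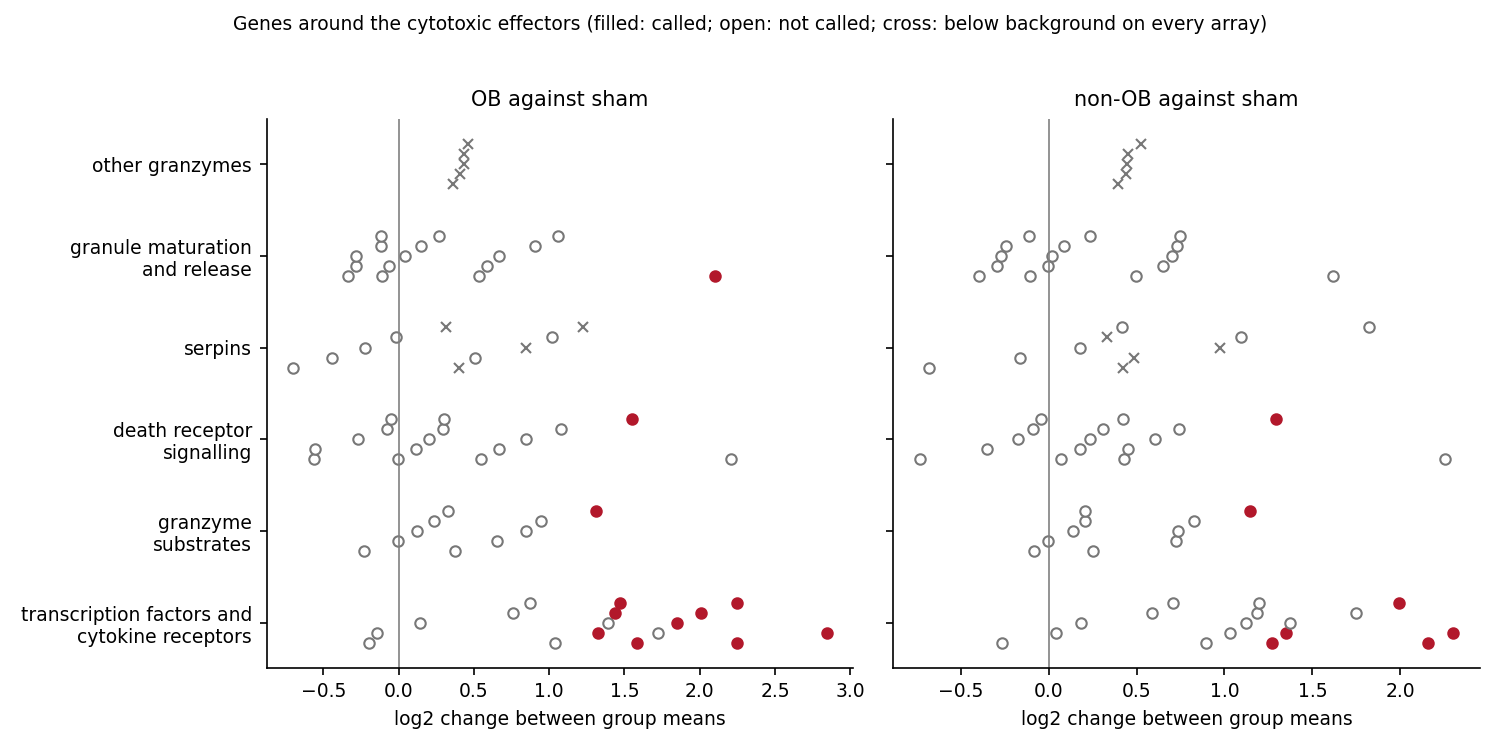
Log2 change of each of 74 genes in 6 lists, 1 symbol for each gene, in OB against sham (left) and non-OB against sham (right); filled red circles were called, open circles were not, and crosses were below background on every array. The 9 called genes of OB in the list of transcription factors and cytokine receptors lie between 1.32 and 2.84, and the 5 other granzymes are all crosses.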

How the data were processed

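RNA of 3 OB, 3 non-OB and 3 sham left lungs was hybridised to 1 Agilent SurePrint mouse array each. The authors extracted the scans with Agilent Feature Extraction 12.0.3.1, per the study's notes, and deposited the processed intensity of each spot, background-subtracted and detrended. A second deposited table holds the intensities after scaling to a mean of 2500, trimmed by 2% at each end, and the scaling repeated here matched it. Control spots and spots marked as outliers were left out, probes printed more than once were averaged as log2 values of the deposited intensities, and no value was saturated. The number of arrays limits the precision.

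Limma 3.58.1 (R 4.3.3) was fitted to all 9 arrays with 1 mean for each group, and p-values were adjusted by Benjamini-Hochberg over 56601 probes. The code was tested on simulated data. Each gene is given by its brightest probe named through RefSeq (GRCm38.p6), and its other probes beside it. Probe coordinates are not given, because the array design uses another build. Of each list around the genes, up to 4 called genes with the largest change and up to 2 others were named. The 10 genes and the lists were chosen with earlier results of these data known. The labels give no separate cultures or litters, and p-values measure the spread between these lungs. Slides were read from the array identifiers. Protein sequences were not used here. Alternatives were other scalings, background corrections, filters, spreads, tests, fold thresholds, blocks and shams, and each array left out. Python 3.11.15 and matplotlib 3.10.9 drew the plots.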

Additional observations from a re-analysis of the deposited data

How the results depend on the processing

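Of 740 values of the 10 genes under other settings, 670 kept their direction and their side of the threshold, 39 lost a call, 10 gained one and 21 changed sign, all of them uncalled. The OB count against sham (4 higher, 1 lower) was 2 and 0 with the methods' t-test after Benjamini-Hochberg, and 0 and 0 with the slide as a fixed block or against sham 1, the C57BL/10 lung by the study's figure, alone. Under these last 2 settings few genes of any kind were called, 3 higher and 0 lower of 22909 with the slide block and 131 and 13 against that lung. The non-OB count (1 higher, 1 lower) was 0 and 0 under the same 3 settings and with normexp and quantile normalization. Its higher count was 3 with a filter on dim probes, with the unadjusted t-test of the methods, with eBayes with trend and robust and with the slide as a random block, and its lower count was 0 with quantile normalization or with only the 2 groups compared. With 1 array left out it ran from 0 to 2 higher and from 0 to 1 lower. Between OB and non-OB the unadjusted t-test called 1 gene, *Nkg7*. The pathway count ran from 4 to 14 in OB and from 2 to 9 in non-OB with 1 array left out, and the non-OB count was 11 with the 75th percentile scaling or with quantile normalization. The cause of these changes was not tested. Low signal limits *Gzmc* in all sham lungs and *Gzmk* in sham 1 and sham 3 to values not well above background.

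Signs turned as follows. *Prf1* in non-OB against sham changed by 0.0038 with the 75th percentile scaling, 0.17 with the slide as a fixed block and 0.0607 with it as a random block. *Fas* in non-OB against sham changed by -0.001 with the mean of all probes and -0.67 against the C57BL/10 sham alone. The median of the other granzymes in non-OB, all below background, was -0.007 with quantile normalization. With 1 array left out, *Prf1* ran from -0.10 to 0.23 in OB against sham, from -0.16 to 0.16 in non-OB and from -0.13 to 0.26 between them, *Fas* from -0.10 to 0.51 in non-OB, and *Gzmb* from -0.15 to 0.27 and *Gzmc* from -0.32 to 0.31 between OB and non-OB.

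The titles of lungs with the same replicate number share only that number, but OB 1, non-OB 1 and sham 1 also shared slide 1. Correlations of the deviations of such lungs ran from 0.157 to 0.489 for number 1. They ran from -0.517 to 0.204 for number 2 and from 0.324 to 0.426 for number 3. With the replicate block the non-OB count lower was 0 and *Gzmk* in OB had an adjusted p of 0.0501 from limma.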
